A study of Mus musculus with 24 samples.

Results

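The 6 genes described here are those whose level in developing mouse jaws differed between Tgfbr2 mutants and controls, in one direction, in each of 4 jaw regions. They are Sned1 and Vit, which were higher in mutants, and Itga9, Col8a2, H2az2 and Tmem255a, which were lower. The 6 were picked from 18193 genes with a single symbol on the array because of that behaviour, so the mutant and control values given for them describe the choice and are reported without a test. All 6 were among the 12811 genes tested, which are those above the median of their array on at least 3 of the 24 arrays.

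Total RNA from embryonic day 14.5 (E14.5) jaws was hybridised to Affymetrix Mouse430_2 arrays, 3 arrays in each of 8 groups. Wnt1cre;Tgfbr2 fl/+ mice had been crossed with Tgfbr2 fl/fl mice on a C57B6 background, and embryos with cleft palate and calvarial defect were taken as mutants. Each maxilla and each mandible was cut into a distal and a proximal end, so the groups are control or mutant, maxilla or mandible, distal or proximal. By this cross every embryo carries at least 1 floxed Tgfbr2 allele. The labels do not say whether the control littermates carried Wnt1-Cre, whether tissue was pooled, or whether one embryo gave several of the arrays, so the p-values measure the spread between these arrays. Wnt1-Cre acts in neural crest cells, which form most of the facial mesenchyme but not its muscle fibres, endothelium or epithelium, so the tissue holds cells that keep the receptor.

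TGF-beta receptor 2 (Tgfbr2) binds TGF-beta ligands and, with a type I receptor, phosphorylates Smad proteins that regulate transcription. In the face this pathway is known for its part in palate fusion, tendon formation and growth of the jaw skeleton, and among its targets are many genes of the extracellular matrix. SNED1 is a matrix glycoprotein with nidogen, EGF and fibronectin type III domains, and vitrin, the product of Vit, is a matrix protein with von Willebrand A domains. Integrin alpha 9 pairs with integrin beta 1 in a receptor for tenascin C, osteopontin and other matrix ligands. Col8a2 encodes a chain of the short network-forming collagen VIII, H2az2 a form of the histone variant H2A.Z, and Tmem255a a membrane protein of little-known function.

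The stretch just upstream of the transcription start was read from RefSeq (GRCm38.p6) to search it for motifs, and 3 of these stretches are shown so that the only match can be seen beside a gene of each direction. Sned1 stands for the genes higher in mutants, Col8a2 for those lower, and Tmem255a carries the match, in capitals. Each runs 5′ to 3′ on the strand of its gene and stops before the first transcribed base in the annotation. The Sned1 stretch is chr1:93235647-93235795 on the plus strand, the Col8a2 stretch is chr4:126286544-126286793 on the plus strand, and the Tmem255a stretch is chrX:38252497-38252731 on the minus strand.
Sned1: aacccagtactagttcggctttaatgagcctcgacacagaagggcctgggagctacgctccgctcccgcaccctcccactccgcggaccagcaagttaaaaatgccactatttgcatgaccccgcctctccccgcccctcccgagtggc
Col8a2: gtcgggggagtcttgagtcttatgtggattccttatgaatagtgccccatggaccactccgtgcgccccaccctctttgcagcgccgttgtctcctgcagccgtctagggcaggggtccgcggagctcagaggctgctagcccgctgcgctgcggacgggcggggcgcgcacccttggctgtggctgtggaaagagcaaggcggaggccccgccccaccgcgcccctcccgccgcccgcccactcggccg
Tmem255a: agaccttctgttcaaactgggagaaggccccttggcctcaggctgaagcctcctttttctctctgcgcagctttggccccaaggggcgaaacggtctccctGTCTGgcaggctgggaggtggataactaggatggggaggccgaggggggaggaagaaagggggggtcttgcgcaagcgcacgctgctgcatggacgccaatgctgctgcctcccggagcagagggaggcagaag
The table held promoters of 5 of the 6 genes, all but Vit, and the 250 bases before the listed start were searched on both strands. The Smad binding element CAGAC, or GTCTG on the other strand, was found once, in Tmem255a, against 42.1% of all 27025 promoters in the table. The Smad palindrome GTCTAGAC, which does not contain that element, the AP-1 site TGACTCA and the TEAD site GGAATG were found in none of the 5, against 0.174%, 4.43% and 12.6% of all promoters. The listed start of Itga9 lies inside the annotated gene, so no stretch of it is shown. These are counts of letters in a short window and say nothing about binding.

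All values below are log2 RMA values per array, given in the order of replicates 1, 2 and 3, and each gene is followed through its main probe set, the one with the highest mean over the 24 arrays. A difference is the mutant mean minus the control mean on the log2 scale, with the standard error of the limma fit. In bulk tissue, fewer cells of a type and less RNA per cell cannot be told apart. In every region, every mutant array lay on one side of every control array for all 6 genes, 24 of 24 gene and region pairs. Because that is how they were picked, the background is given without reading anything from it: 11.6% of tested genes were likewise separated in the distal maxilla, 36.2% in the proximal maxilla, 22% in the distal mandible and 24.2% in the proximal mandible. Only 59 genes (0.461%) were separated with mutants higher in all 4 regions, and 50 (0.39%) with mutants lower, the 6 genes included.

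**Figure D1:**
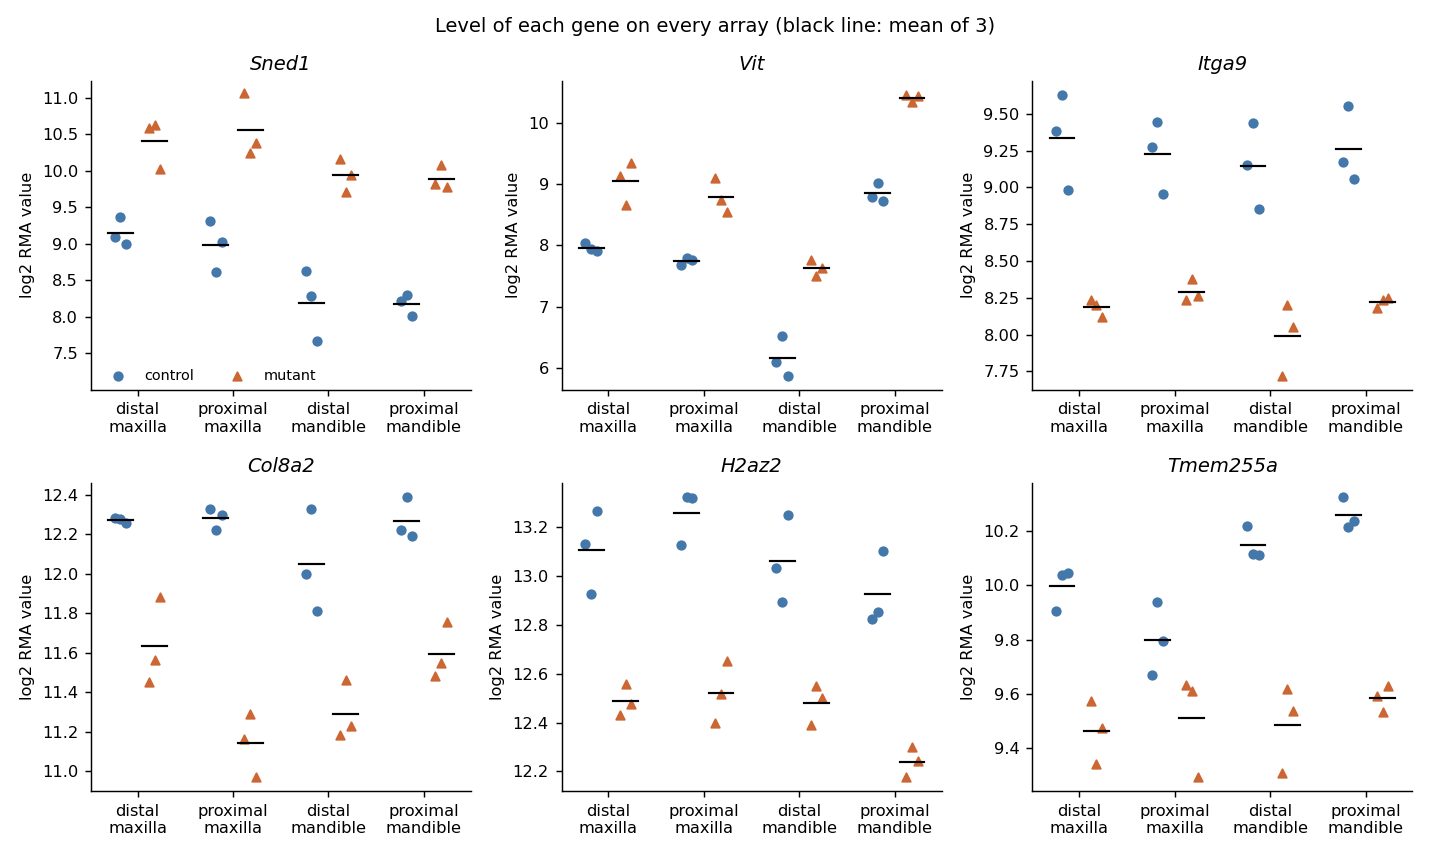
Log2 RMA value of each of the 6 genes (vertical axis, a scale of its own in every panel) on all 24 arrays, by jaw region (horizontal axis), with controls as circles, mutants as triangles and the mean of 3 as a black line. No mutant array overlaps a control array of its region, and Vit differs more between regions than the other genes.

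The gene with the largest mean difference was Sned1, higher in mutants by 2.39-fold to 3.35-fold. In the distal maxilla the control arrays read 9.09, 9.37 and 9.004 and the mutant arrays 10.59, 10.62 and 10.02. In the proximal maxilla the controls read 9.32, 8.62 and 9.02 and the mutants 11.06, 10.24 and 10.39. The difference was 1.26 ± 0.24 in the distal and 1.58 ± 0.24 in the proximal maxilla (SE, n = 3 per group), and the mutants' lowest array there, 10.02, was above the controls' highest, 9.37. In the distal mandible the controls read 8.62, 8.29 and 7.67 and the mutants 10.16, 9.71 and 9.95. In the proximal mandible the controls read 8.22, 8.29 and 8.01 and the mutants 9.82, 10.08 and 9.78. The mandible differences were 1.74 ± 0.24 distally and 1.72 ± 0.24 proximally, so the control levels were lower in the mandible while the mutants were again all higher. Over all regions the 12 control arrays ran from 7.67 to 9.37 with a median of 8.62, and the 12 mutant arrays from 9.71 to 11.06 with a median of 10.12, with no overlap. Ordered by mean, the 4 mutant groups came first, from proximal maxilla to proximal mandible, and each overlapped its neighbour within a genotype.

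Vit, the other gene higher in mutants, differed by 2.06-fold to 2.95-fold. In the distal maxilla the controls read 8.04, 7.94 and 7.91 and the mutants 9.13, 8.65 and 9.34. In the proximal maxilla the controls read 7.69, 7.80 and 7.76 and the mutants 9.09, 8.73 and 8.55. The 2 maxilla differences, 1.08 ± 0.17 and 1.04 ± 0.17, were close to each other. In the distal mandible the controls read 6.10, 6.53 and 5.88, all below the median of their array, and the mutants 7.76, 7.51 and 7.63. In the proximal mandible the controls read 8.79, 9.02 and 8.73 and the mutants 10.45, 10.34 and 10.43. The mandible differences were 1.46 ± 0.17 distally and 1.56 ± 0.17 proximally. The distal one is measured against controls below their array median. Unlike Sned1, the 12 control arrays (5.88 to 9.02) and the 12 mutant arrays (7.51 to 10.45) overlapped when regions were mixed. The control proximal mandible lay above the mutant distal mandible, at means of 8.85 and 7.63.

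Itga9 was lower in mutants by 1.91-fold to 2.23-fold on its main probe set, the lowest mean difference over the 4 regions, though Col8a2 differed more in the proximal maxilla. In the distal maxilla the controls read 9.39, 9.63 and 8.98 and the mutants 8.24, 8.20 and 8.12. In the proximal maxilla the controls read 9.28, 9.44 and 8.96 and the mutants 8.24, 8.38 and 8.26. The controls were spread over a wider range than the mutants, and the differences were -1.15 ± 0.17 and -0.93 ± 0.17. In the distal mandible the controls read 9.16, 9.44 and 8.85 and the mutants 7.72, 8.20 and 8.05. In the proximal mandible the controls read 9.17, 9.55 and 9.06 and the mutants 8.18, 8.24 and 8.25. The mandible differences were -1.16 ± 0.17 and -1.04 ± 0.17, and over all regions the lowest control array, 8.85, was above the highest mutant array, 8.38. Among the controls, replicate 2 was the highest and replicate 3 the lowest array in each of the 4 regions.

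Col8a2 was lower in mutants by 1.56-fold to 2.21-fold. In the distal maxilla the controls read 12.28, 12.28 and 12.26 and the mutants 11.45, 11.56 and 11.88. In the proximal maxilla the controls read 12.33, 12.22 and 12.30 and the mutants 11.16, 11.29 and 10.97. The difference was -0.64 ± 0.13 in the distal and -1.14 ± 0.13 in the proximal maxilla, where the mutant group had the lowest mean of all 8. In the distal mandible the controls read 12.001, 12.33 and 11.81 and the mutants 11.18, 11.46 and 11.23. In the proximal mandible the controls read 12.23, 12.39 and 12.19 and the mutants 11.48, 11.55 and 11.76. The mandible differences were -0.76 ± 0.13 and -0.67 ± 0.13. One control distal mandible array, at 11.81, was below the highest mutant distal maxilla array, at 11.88, so the genotypes overlapped slightly across regions.

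On its main probe set H2az2 showed the narrowest span of log2 differences, from 1.49-fold to 1.66-fold lower. In the distal maxilla the controls read 13.13, 12.93 and 13.27 and the mutants 12.43, 12.56 and 12.47. In the proximal maxilla the controls read 13.12, 13.32 and 13.32 and the mutants 12.40, 12.52 and 12.65. The differences were -0.62 ± 0.10 and -0.73 ± 0.10, and the values stood near the top of the array's range, which ended at 14.83. In the distal mandible the controls read 13.03, 12.89 and 13.25 and the mutants 12.39, 12.55 and 12.50. In the proximal mandible the controls read 12.82, 12.85 and 13.10 and the mutants 12.18, 12.30 and 12.24. The mandible differences were -0.58 ± 0.10 and -0.69 ± 0.10, and over all regions the lowest control, 12.82, was above the highest mutant, 12.65. The 4 differences spanned 0.15, against 0.22 for Itga9, 0.52 for Vit and 0.50 for Col8a2. On the second H2az2 probe set they were less even, from -1.07 to -0.63.

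Tmem255a, an X-linked gene, was lower by 1.22-fold to 1.60-fold, the smallest mean difference over the 4 regions, though not the smallest in either end of the mandible. In the distal maxilla the controls read 9.90, 10.04 and 10.05 and the mutants 9.57, 9.34 and 9.47. In the proximal maxilla the controls read 9.67, 9.94 and 9.79 and the mutants 9.63, 9.61 and 9.29. The distal difference was -0.53 ± 0.10, and the proximal one, -0.29 ± 0.10, was the smallest of all 24, with 9.67 the lowest control and 9.63 the highest mutant. In the distal mandible the controls read 10.22, 10.11 and 10.11 and the mutants 9.31, 9.62 and 9.54. In the proximal mandible the controls read 10.33, 10.21 and 10.24 and the mutants 9.59, 9.53 and 9.63. The mandible differences were -0.66 ± 0.10 and -0.68 ± 0.10. The mutant groups lay close together, with means from 9.46 to 9.58, while the control means ran from 9.80 in the proximal maxilla to 10.26 in the proximal mandible.

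**Figure D2:**
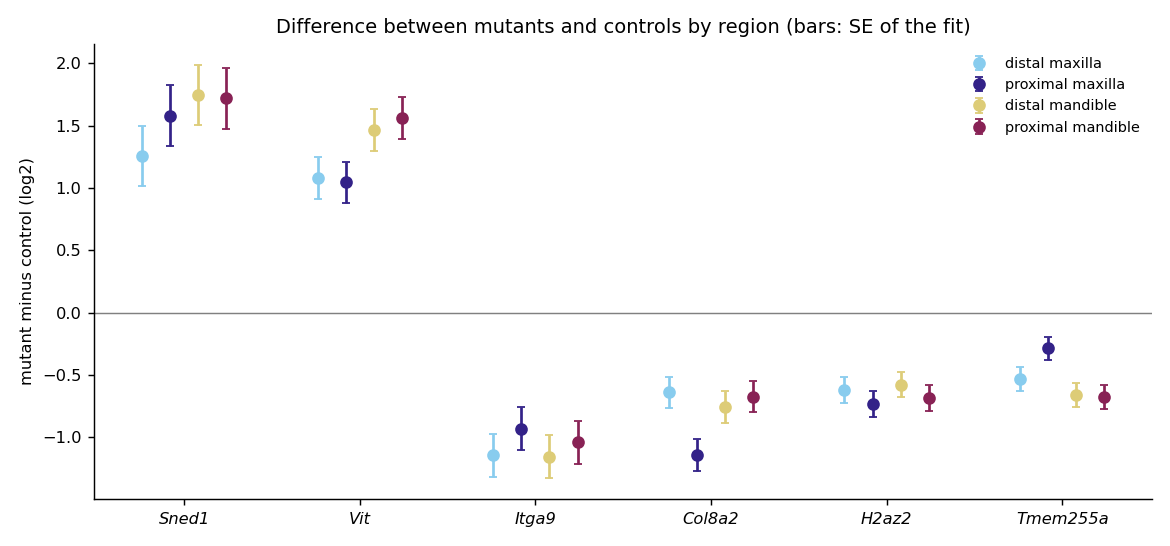
Mutant minus control difference (log2, vertical axis) of each gene in the 4 regions, with the standard error of the fit as bars. The differences of Sned1 and Vit lie between 1.04 and 1.74 and those of the other 4 genes between -1.16 and -0.29. The proximal maxilla stands apart for Col8a2 and Tmem255a, in opposite senses. How far these differences vary between regions was not tested, because they come from the contrast that chose the genes.

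Only 8 of the 12811 genes passed an adjusted p of 0.05 in one direction in all 4 regions (limma, Benjamini-Hochberg over all tested genes), and the 6 genes are among them by choice. The other 2 were Fbln5 and Mfap4, which encode proteins of elastic fibres. Fbln5 fell by 0.80, 0.51, 1.43 and 1.92 in the distal maxilla, proximal maxilla, distal mandible and proximal mandible, with limma adjusted p-values of 0.00552, 0.00385, 1.29e-06 and 1.86e-08. Mfap4 fell by 0.83, 0.65, 0.99 and 1.22 in the same order (limma adjusted p = 0.0176, 0.00372, 0.0017 and 0.000173). The threshold passed 0.195% of tested genes in the distal maxilla, 23.3% in the proximal maxilla, 0.742% in the distal mandible and 4.34% in the proximal mandible, so the fewest genes passed in the distal maxilla. A further 19 genes had one direction in all 4 regions and passed in 3 of them. Among those that missed narrowly were C1s1, a complement protease, at 0.94, 1.22, 0.69 and 1.05, with a limma adjusted p of 0.0613 in the distal mandible, and Adamts6, a matrix protease, at -0.97, -0.64, -1.10 and -0.51, with 0.0748 in the proximal mandible. Fmod, a tendon and cartilage proteoglycan, and Scx, the tendon transcription factor, missed in the distal maxilla by a wide margin, at -0.39 and -0.09 (limma adjusted p = 0.724 and 0.945). Of the 6 genes, Tmem255a had the smallest regional difference, -0.29 in the proximal maxilla, and no p-value is given for it because of the choice.

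Among genes separated in all 4 regions but not among the 6, those with the largest mean difference were Fam162b, Efemp1, Zfp804a, Pparg and Scara5 on the higher side. Efemp1, a fibulin of the matrix, was higher by 0.81, 2.24, 1.06 and 1.03, and passed in the proximal maxilla and proximal mandible (limma adjusted p = 0.000102 and 0.0385). Pparg, the adipogenic nuclear receptor, was higher by 0.67, 1.61, 1.25 and 0.67 and passed in the proximal maxilla and distal mandible. On the lower side they were Kcna5, Fbln5, Fmod, Homer2 and Caln1, of which Fbln5 passed in all 4 regions and Fmod in 3.

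Jaw and end differences within one genotype do not use the contrast that chose the genes, and were tested with limma over all 12811 genes. Vit had by far the strongest regional pattern. Within the mandible the distal minus proximal difference was -2.68 ± 0.17 in controls, 6.39-fold (limma adjusted p = 1.91e-08), and -2.77 ± 0.17 in mutants, 6.84-fold (limma adjusted p = 1.04e-08). In the mandible, 5.78% of tested genes passed between the ends in controls and 27.1% in mutants. Within the maxilla the ends of Vit did not pass, at 0.21 ± 0.17 in controls (8.42% of tested genes passed) and 0.25 ± 0.17 in mutants (0.382%). The mandible minus maxilla difference was therefore below 0 distally, at -1.79 in controls and -1.41 in mutants, and above 0 proximally, at 1.10 and 1.61, and each of these 4 passed, where 8.81%, 4.29%, 33.6% and 16.9% of tested genes did. Of these calls, the control proximal one was lost with nasal and muscle marker levels as covariates, at 0.82 (limma adjusted p = 0.188), and the mutant distal one when only the groups compared were fitted (limma adjusted p = 0.0727). The difference of the jaw differences between the ends, chosen for testing after the values were seen, was -2.89 ± 0.23 in controls (limma adjusted p = 3.48e-06, against 4.01% of tested genes passing) and -3.02 ± 0.23 in mutants (limma adjusted p = 8.31e-07, against 10.3%). Ordered by mean, Vit ran from 10.41 in the mutant proximal mandible to 6.17 in the control distal mandible. The mutant distal maxilla, control proximal mandible and mutant proximal maxilla, at 9.04, 8.85 and 8.79, overlapped one another in that order.

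**Figure D3:**
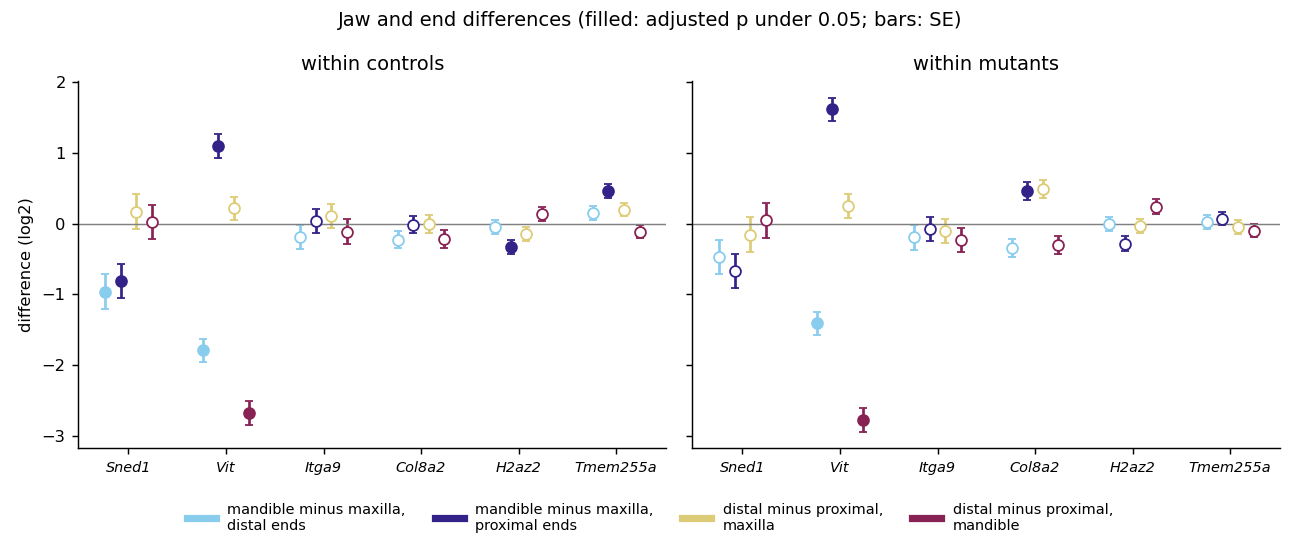
Jaw and end differences (log2, vertical axis) of the 6 genes within controls (left) and within mutants (right), with standard errors as bars and filled points where the limma adjusted p was under 0.05. Vit carries the widest differences, from -2.77 to 1.61, with the same signs in both genotypes.

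Averaged over the ends, 4 of the 6 genes differed between the jaws in controls, where 36.2% of tested genes did. Sned1 was lower in the mandible by 0.89 ± 0.17 (limma adjusted p = 0.000595), and this held at both ends, at -0.96 distally (limma adjusted p = 0.0214) and -0.81 proximally (limma adjusted p = 0.0147). Tmem255a was higher in the mandible by 0.31 ± 0.07 (limma adjusted p = 0.00164), most at the proximal end, where it was 0.46 ± 0.10 higher, or 0.095 with the covariates named below (limma adjusted p = 0.801). Vit, at -0.35 ± 0.12 (limma adjusted p = 0.0263), averages over the opposite differences of its ends. H2az2, at -0.19 ± 0.07 (limma adjusted p = 0.0487), lost its call in 22 of 34 alternative settings and turned to 0.03 with nasal and muscle marker levels as covariates. With those covariates Tmem255a also turned, to -0.01, and no call was left among the 6 (limma), with Sned1 at -1.31 (limma adjusted p = 0.0753) and 2 of the 6 at an unadjusted p under 0.05. Itga9 and Col8a2 did not pass, at -0.07 ± 0.12 and -0.12 ± 0.09. The nasal and olfactory marker mean, on a scale centred over all arrays, lay between 0.19 and 2.73 in control maxilla and between -1.27 and -0.98 in control mandible, and its part in these jaw differences beyond that fit was not tested.

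In mutants, Sned1 alone differed between the jaws when the ends were averaged, at -0.57 ± 0.17 (limma adjusted p = 0.0377), where 12.1% of tested genes passed, and it lost the call in 11 of 34 alternatives. Col8a2 showed a pattern in mutants that it did not pass for in controls. It was 0.46 ± 0.13 higher in the mandible at the proximal ends (limma adjusted p = 0.0185) and stood at -0.34 ± 0.13 at the distal ends (limma adjusted p = 0.143). The difference between these was -0.80 ± 0.18 (limma adjusted p = 0.00796), against -0.21 ± 0.18 (limma adjusted p = 0.596) in controls, and whether the genotypes differ in it was not tested. Between distal and proximal ends averaged over the jaws, Vit alone passed, at -1.23 ± 0.12 in controls (limma adjusted p = 1.54e-05, 8.49% of tested genes) and -1.26 ± 0.12 in mutants (limma adjusted p = 1.05e-05, 15.4%). Of the 48 tests of a jaw or an end within a stratum, 11 passed, of which 6 were of Vit and 2 of Sned1. The share of all tested genes that passed in these comparisons ran from 0.382% to 33.6%. Itga9 passed in no jaw or end comparison (limma), its lowest unadjusted p was 0.186, and its largest difference was -0.23 ± 0.17, between the ends of the mutant mandible.

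Of the 6 genes, 3 were measured by more than 1 probe set. For H2az2 the second probe set was lower in mutants in all 4 regions, by 0.63 to 1.07. For Tmem255a the 3 further probe sets were lower in 3, 4 and 3 regions without overlap. Over all 4 regions, overlapping ones included, their means were lower by 0.27 to 0.93, and the proximal maxilla difference was again the smallest. Itga9 did not behave alike across its probe sets. One, at control means from 7.84 to 8.01, was lower in 3 regions by 0.31 to 0.54 and overlapped in the proximal maxilla at -0.18. The other, at control means from 6.72 to 7.05 and so near the array medians of 6.93 to 6.999, overlapped in all 4 regions, at -0.14 to -0.06. Averaging its 3 probe sets gave Itga9 differences of -0.58, -0.41, -0.59 and -0.50.

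**Figure D4:**
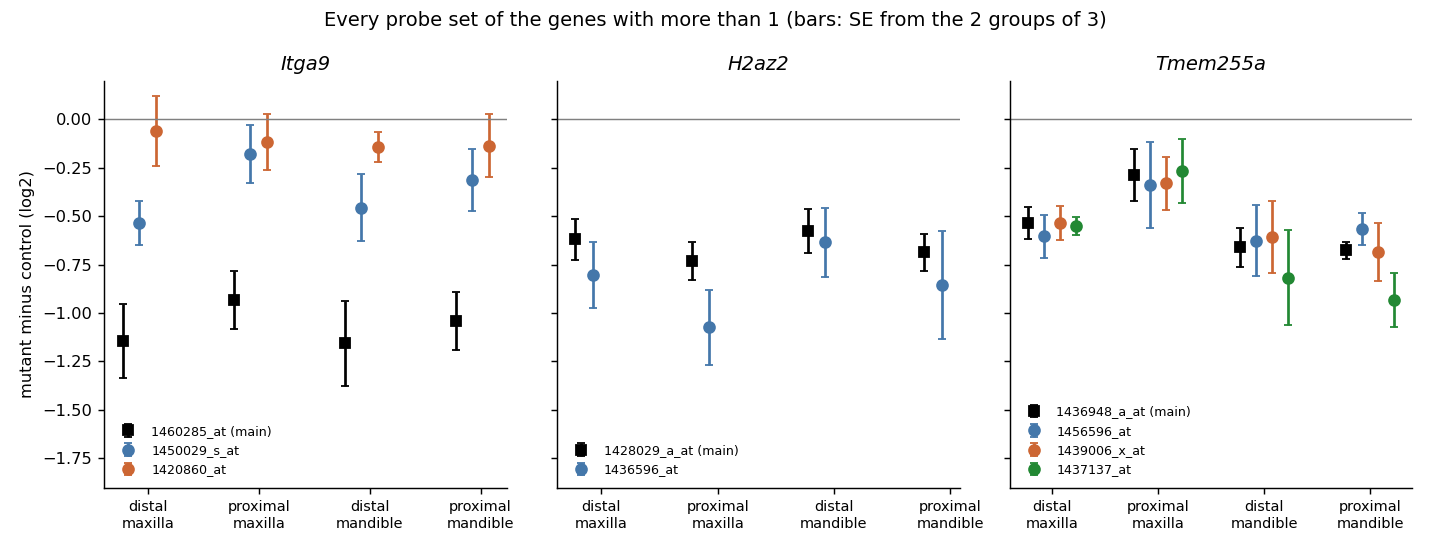
Mutant minus control difference (log2, vertical axis) of every probe set of Itga9, H2az2 and Tmem255a in the 4 regions (horizontal axis), with the main probe set as a black square and the standard error from the 2 groups of 3 arrays as bars. The probe sets of H2az2 and of Tmem255a lie below 0 throughout, and the dimmest Itga9 probe set lies between -0.14 and -0.06.

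The RefSeq annotation lists a Wnt1-cre transgene among the synonyms of the H2az2 locus. The labels name neither the Wnt1-Cre line of this cross nor the Cre status of the controls, while mutants carry Wnt1-Cre by design, so genotype and presence of the transgene cannot be told apart at this locus. Of the 5 protein-coding genes on each side of H2az2, looked at after the values were seen, 9 were tested and none passed or was separated in all 4 regions. Zmiz2 passed in 2 regions, at -0.25 in the proximal maxilla and -0.23 in the proximal mandible, and Nacad in the proximal maxilla at -1.04. Itga9 lies on the chromosome of Tgfbr2 itself, with 7 protein-coding genes between them. Of the 4 of these that were tested, Rbms3 passed in the proximal maxilla alone, at 0.33, and none was separated in all 4 regions. Around Sned1, Vit, Col8a2 and Tmem255a, with 6 to 10 tested neighbours each, no neighbour was separated in all 4 regions either.

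**Figure D5:**
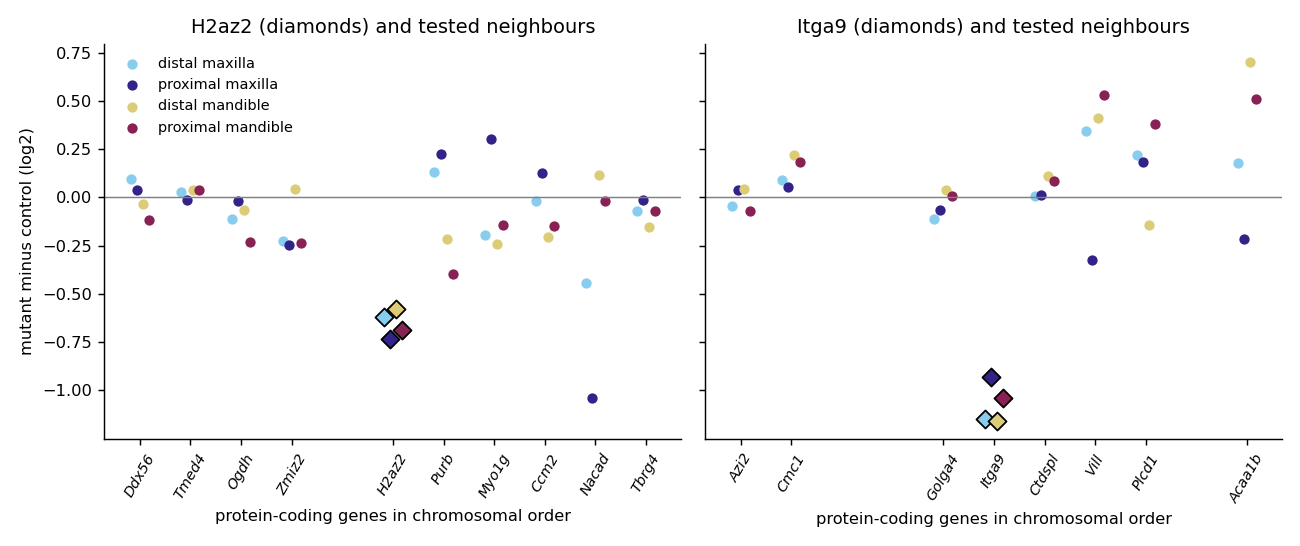
Mutant minus control difference (log2, vertical axis) of H2az2 and Itga9 (diamonds) and of their tested neighbours (circles) in chromosomal order, coloured by region. The neighbours of H2az2 lie between -0.44 (Nacad, distal maxilla) and 0.30 (Myo1g, proximal maxilla), apart from Nacad in the proximal maxilla at -1.04. H2az2 lies between -0.73 and -0.58 in all 4 regions.

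Tgfbr2 itself read higher in mutants, by 0.39, 0.78, 0.31 and 0.32, passing in the proximal maxilla and proximal mandible (limma adjusted p = 8.90e-05 and 0.0472). The labels do not name the floxed exon, so its probe set does not check the labels. Over all tested genes, 0.195%, 23.3%, 0.742% and 4.34% passed in the distal maxilla, proximal maxilla, distal mandible and proximal mandible. Of the 19 tested TGF-beta ligands, receptors and Smads, 6 rose and 1 fell in the proximal maxilla, 1 rose in the distal mandible and 3 rose in the proximal mandible. Tgfb2, a ligand, rose in 3 regions, by 0.61, 0.54 and 0.69. Of 24 tested TGF-beta response genes, 1 fell in the distal maxilla, 8 rose and 5 fell in the proximal maxilla, 4 fell in the distal mandible, and 1 rose and 4 fell in the proximal mandible. Their median difference stayed between -0.09 and 0.02, against -0.04 to 0.03 over all tested genes.

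Relatives and partners of the 6 genes are set beside the same shares of all tested genes. Among 17 tested integrin subunits, 7 rose in the proximal maxilla, among them Itgb3, by 1.18, and Itga7, by 0.68. Itga7 fell by 0.77 in the proximal mandible (limma adjusted p = 0.0454), the opposite direction. Among 13 tested ligands of integrin alpha 9 beta 1, 5 rose and 1 fell in the proximal maxilla, with Adam12 1.03 and Vcam1 0.89 higher and Tgm2 at -1.46. Vegfa, one of the 5, also rose in both ends of the mandible, by 0.46 and 0.40. Of 18 tested H2A variants and H2A.Z exchange subunits, 4 fell in the proximal maxilla, and 1 of them, Macroh2a1, also fell in the proximal mandible, by 0.36. Of 6 tested short chain collagen and EMILIN genes, 2 rose and 1 fell in the proximal maxilla. Emilin2 and Emilin3 rose, by 1.54 and 0.84. Col8a1, the partner chain of Col8a2, fell by 1.21 there (limma adjusted p = 0.00289). It read 0.00, 0.24 and -0.65 in the other regions, which did not pass. Of 13 von Willebrand A domain matrix genes, 6 rose and 3 fell in the proximal maxilla and Matn1, a cartilage matrilin, was lowest at -5.05. Of 11 nidogen and EGF repeat genes, 4 rose and 2 fell in the proximal maxilla. Efemp1 rose and Fbln5 fell in the proximal mandible, and Fbln5 was the 1 gene that fell in each distal end.

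Mean levels of cell type markers differed between some groups, whether through cell number or RNA per cell. Beyond the fits below, their relation to the 6 genes was not tested. The mesenchyme marker genes Prrx1 and Twist1 were above the array median on all 24 arrays. Over all regions, neural crest mesenchyme markers averaged -0.70 to 0.83 in controls and -0.69 to 0.81 in mutants on a centred log2 scale. In the proximal maxilla they were higher in mutants without overlap, at -0.13 to 0.19 against -0.64 to -0.15 in controls. In the other regions the genotypes overlapped. Tendon and ligament markers averaged 0.26 to 1.08 in control mandibles and -0.62 to 0.26 in mutant mandibles, without overlap within an end, while in the maxilla both genotypes overlapped. On 3 mutant maxilla arrays, distal 1 and proximal 1 and 2, nasal markers were low (-1.23 to -0.38) and cartilage markers low (-2.63 to -2.36), with muscle markers above those of the other mutant maxilla arrays. Cartilage markers were also low on mutant distal mandible arrays 1 and 3, at -2.14 and -1.88, and on control proximal mandible array 3, at -1.23. In the proximal mandible they were higher in mutants without overlap, at 0.95 to 1.51 against -1.23 to 0.79 in controls. Muscle markers averaged 0.69 to 1.43 in the control and -0.50 to 0.29 in the mutant distal mandible. Neuron markers were lower in mutants without overlap in both ends of the maxilla. In the proximal maxilla nasal markers were also lower without overlap, at -1.23 to 1.88 against 2.62 to 2.73 in controls. Muscle markers were higher there without overlap, at -0.15 to 1.91 against -1.85 to -0.83, as were endothelium, macrophage and keratinocyte markers. Mutant proximal maxilla 3, not among the 3 arrays named above, read 1.88 for nasal and -0.15 for muscle markers, so it too lay outside the controls. Leaving out those 3 arrays cannot create an overlap, so all 24 pairs stayed separated by construction. The proximal maxilla differences, then resting on 1 mutant array, were 0.80 for Vit, -1.31 for Col8a2, -0.60 for H2az2 and -0.51 for Tmem255a, and those of Sned1 and Itga9 moved by less than the replicate SD. With nasal and muscle marker means as covariates, the proximal maxilla differences were 1.205 for Sned1, 0.83 for Vit, -0.53 for H2az2 and -0.57 for Tmem255a, while the other 20 regional differences of the 6 genes moved by less than the replicate SD. The part of the other marker lists was not tested.

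The embryos also differed in Xist, the transcript of the inactive X chromosome. It was at 12.49 to 13.26 on all 12 mutant arrays, at 12.43 to 13.43 on 7 control arrays and at 6.28 to 6.66 on the other 5, which were every replicate 3 and replicate 2 of the proximal maxilla. The mutants were also set against the 7 control arrays with high Xist alone, a comparison added after seeing the data. These are some of the same controls, so the 24 pairs could not come to overlap. Sned1 then differed by 1.18 to 1.64, Vit by 1.05 to 1.503, Itga9 by -1.32 to -0.98, Col8a2 by -1.19 to -0.65 and H2az2 by -0.60 to -0.48. The X-linked Tmem255a differed by -0.69 to -0.16, the latter in the proximal maxilla against 1 control array. The low control arrays of Itga9, replicate 3 in each region, are among those with low Xist. Proximal maxilla 2, also low in Xist, was instead the highest Itga9 control of its region, at 9.44. For H2az2 the controls with low Xist had the higher mean in each region, at 13.1 to 13.32 against 12.84 to 13.12. For Sned1 they had the lower mean in each region, at 7.67 to 9.004 against 8.26 to 9.32. A link with Xist was not tested.

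Within their groups the 6 genes did not vary as one. The correlation of their deviations from the group means, over 24 arrays, ran from -0.62 between Vit and H2az2 to 0.54 between Vit and Col8a2. Itga9 and Col8a2 had 0.46, and H2az2 was negative with each of the other 5. The genes nearest to each were Kcp for Sned1 (r = 0.79), Tmem94 for Vit (0.80), Pcm1 for Itga9 (0.84), Cacna1c for Col8a2 (0.82), Lamtor3 for H2az2 (0.86) and Chodl for Tmem255a (0.82). Chrdl1 was second for Vit at 0.79 and also followed it across all 24 arrays, at 0.82. These correlations describe arrays that share RNA quality, dissection and labelling, and carry no test.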

How the data were processed

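The authors deposited one table of log2 values for 45101 probe sets on 24 Affymetrix Mouse430_2 arrays; Partek 6.6 and RMA are named in the submitters' processing notes, and 5 µg of total RNA went into labelling, per the labels' protocols. That the deposited values are on the log2 scale was read from their range, 3.44 to 14.83. No genome build or array quality measure is given in the sources used here. Probe sets were named through the platform annotation. Leaving out 64 array controls, 34945 had 1 symbol. With the controls counted in, 932 had several symbols and 9211 had none. Each gene was represented by its probe set with the highest mean. Genes above the array median on at least 3 arrays were fitted with limma 3.58.1 (R 4.3.3), 1 mean per group and no covariate, with Benjamini-Hochberg adjustment over all 12811 genes; the fit was tested on simulated data. The precision is limited by 3 arrays per group. The members and gene lists were chosen with earlier results of these data known, and the jaw by end difference was added after its values were seen. Genes named beside the 6 follow a rule: Tgfbr2, the 5 genes per direction with the largest mean difference among those separated in all 4 regions, the nearest 3 genes by correlation for each of the 6, and up to 4 genes per list. Neighbouring genes, Fbln5 and Mfap4 as a pair, and the genes just outside the threshold were chosen after their values were seen. The alternatives were another probe set rule, normalization, filter, replicate block, samples, weights, covariates and leaving out arrays.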

Additional observations from a re-analysis of the deposited data

Results flagged for a closer look

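Groups of 3 arrays were too small to test for single outlying arrays. The mandible minus maxilla difference changed with the end of the jaw for Vit, by -2.89 in controls and -3.02 in mutants on the log2 scale, and for Col8a2 in mutants, by -0.80 (limma on the difference between ends). Each of these 3 kept its call in all 34 alternative settings.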

How the results depend on the processing

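All 24 pairs of gene and region stayed separated with the mean of all probe sets and with quantile normalization. Leaving out arrays cannot undo a separation, so those alternatives do not bear on it. Of 768 regional differences under alternatives, 751 moved by less than 1 SD between replicates, 17 by more and none changed sign. Many of the 768 could not move. Leaving out an array changes only the differences of its own region, and fitting only the groups compared changes none. All come from the contrast that chose the genes. The jaw difference in mutants, 1 call, gave none with quantile normalization, with only the groups compared, with array weights, or without the 3 mutant maxilla arrays, where limma left 2, 2, 2 and 3 of the 6 genes at an unadjusted p under 0.05, and ran from 0 to 1 leaving out single arrays. The 4 control jaw calls became 0 with nasal and muscle covariates and 2 with high-Xist arrays alone (added after seeing the data), and 2 to 4 leaving out single arrays. With the covariates, H2az2 turned to 0.026 (limma adjusted p = 0.949) and Tmem255a to -0.0087 (limma adjusted p = 0.982). The mutant end calls rose from 1 to 2 with array weights. The 11 calls within strata became 17 with array weights and 6 with the covariates, and 10 to 12 leaving out single arrays. The 76 calls among listed genes became 38 with only the groups compared, 149 with array weights, 47 without the 3 mutant maxilla arrays, 45 with the covariates and 22 with high-Xist arrays, and 56 to 90 leaving out single arrays. The cause of these shifts was not tested, beyond the smaller number of arrays where arrays were left out.

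Single arrays decided some calls. The mutant jaw call of Sned1 was lost without distal maxilla 1 or 2, proximal maxilla 1, distal mandible 2 or 3, or proximal mandible 1 or 3 (-0.57 to -0.45). Its control call at the distal ends was lost without any one distal maxilla array or without distal mandible 3 (-1.04 to -0.70), and at the proximal ends without proximal maxilla 1 (-0.65) or proximal mandible 3 (-0.73). The averaged control jaw call of Vit was lost without distal maxilla 1, proximal maxilla 2, distal mandible 1 or 3, or proximal mandible 1 or 3, and that of H2az2 in 18 of the 24 such settings (-0.19 to -0.15). H2az2 at the control proximal ends was lost without maxilla 2 or 3 or mandible 1 or 2, and Col8a2 at the mutant proximal ends without maxilla 3 (0.37) or mandible 3 (0.38).

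Same-numbered arrays of different regions deviated together in part. The median correlation was 0.29 over 18 pairs in controls (17 over 0.1, lowest 0.02). It was 0.23 over 18 pairs in mutants (12 over 0.1, lowest -0.09). Between genotypes, same region included, it was 0.14 over 48 pairs (29 over 0.1, lowest -0.27). The labels do not say whether same-numbered arrays share an embryo. The main fit did not pair them, so its p-values treat all arrays as independent. With the replicate block, calls for the mutant jaw and mutant end differences each rose from 1 to 2 and those within strata from 11 to 15.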
